A study of Drosophila melanogaster with 10 samples.

Results

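The genes described here encode the ligands, receptors and feedback inhibitors of the FGF and EGF receptor pathways in Drosophila melanogaster. They were chosen by name, whatever their values, and all 10 (bnl, pyr, ths, btl, htl, spi, vn, Egfr, aos and sty) were found among the 17676 genes of the count table. Expression was measured by sequencing polyadenylated RNA of cells sorted as type II neuroblasts (NB II, a class of neural stem cells of the larval brain). They were sorted from dissected larval brains by light scatter and GFP fluorescence. In the paper's stainings GFP also marks the descendants of NB II. Every group carried wor-GAL4 ase-GAL80 UAS-mCD8::GFP, in which wor-GAL4 drives expression in neuroblasts and ase-GAL80 blocks it in the other neuroblast class (type I). Control NB II carried nothing more (3 libraries), brat-KD NB II also expressed a double-stranded RNA against brat (4 libraries), and the last group was labelled as expressing RNAs against brat and Spt5 together (brat-KD/Spt5-KD, called here the libraries labelled co-depleted, 3 libraries). Larvae were raised at 25 °C and were 96 h old according to the labels, while the methods give an older age. Brat represses translation in the daughter cells of NB II, and its loss makes NB II lineages form tumors. Spt5 is a transcription elongation factor. The comparisons ask how depletion of Brat, and of Spt5 on top of it, changed transcript levels.

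FGF and EGF receptors are receptor tyrosine kinases at the cell surface. Ligand binding switches on Ras and a chain of kinases that ends in the MAP kinase Rolled, which acts on ETS-family transcription factors such as Pointed. Branchless (bnl) is the FGF of the receptor Breathless (btl), a pair best known from tracheal branching, and Pyramus (pyr) and Thisbe (ths) are the FGFs of the receptor Heartless (htl), which in the larval brain is known from glia. Spitz (spi) and Vein (vn) are ligands of the EGF receptor (Egfr), Argos (aos) is a secreted inhibitor that binds Spitz, and Sprouty (sty) inhibits signaling inside the cell. Argos and Sprouty are known in several tissues as products of genes that the pathway itself switches on.

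Library totals ran from 2158058 counts (co-depleted replicate 3) to 9753111 counts (control replicate 2). Replicate 1 stood apart in 2 groups: its Spearman correlation with the other libraries of its group was 0.895 and 0.897 in the control, where the other pair reached 0.987, and 0.801 with either of the others in the libraries labelled co-depleted, where the other pair reached 0.934. The brat transcript was, in CPM (counts scaled to the size of each library), at 880 to 1002 in the control, at 130 to 214 in brat-KD NB II and at 107 to 290 in the libraries labelled co-depleted. Spt5 was at 182 to 227 CPM in the control, at 128 to 165 CPM in brat-KD NB II and at 205, 116 and 584 CPM in the 3 libraries labelled co-depleted. Of these, replicate 1 was within and replicate 3 above the control range, which goes against their label, so the group is named by its label throughout. The summed level of 6 neuroblast markers was 1720 to 1862 CPM in the control, 3504 to 4032 CPM in brat-KD NB II and 1730 to 2188 CPM in the libraries labelled co-depleted. Most of it was mira, at 1041 to 1216 CPM in the control and 934 to 1193 CPM in the libraries labelled co-depleted. In the latter mira, klu, grh and insc were below every library of brat-KD NB II. wor was above every control library there (292 to 387 against 181 to 203 CPM) and overlapped brat-KD NB II (319 to 412 CPM). dpn ran from 16.0 to 154 CPM there, against 70.7 to 72.3 CPM in the control. The summed level of 5 markers of intermediate neural progenitors, the NB II daughters, was 379 to 482, 65.7 to 127 and 53.7 to 473 CPM in the 3 genotypes. That of 5 neuron markers was 508 to 612, 121 to 183 and 189 to 273 CPM. In the libraries labelled co-depleted elav, nSyb, brp and Syt1 were below every control library. para was above them, at 91.4, 119 and 72.1 CPM against 17.5 to 22.8 CPM in the control. elav was at 122, 63.4 and 86.2 CPM, against 82.6 to 122 CPM in brat-KD NB II. Nothing in the labels says that replicates came from separate cultures or animals, so p-values measure only the spread between these libraries. In bulk RNA, fewer cells of a type and less RNA per cell cannot be told apart.

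All 10 genes were counted over gene bodies that the Ensembl annotation of BDGP6 (dm6) places as follows. bnl (FBgn0014135) lies on 3R at 19794073 to 19836817, pyr (FBgn0033649) on 2R at 11712263 to 11726345 and ths (FBgn0033652) on 2R at 11756817 to 11814424. The receptor genes btl (FBgn0285896), htl (FBgn0010389) and Egfr (FBgn0003731) lie on 3L at 14075772 to 14083229, on 3R at 18045216 to 18052984 and on 2R at 21522420 to 21559977. The EGF ligand spi (FBgn0005672) lies on 2L at 19567900 to 19577315 and vn (FBgn0003984) on 3L at 5813338 to 5845664, and the inhibitors aos (FBgn0004569) and sty (FBgn0014388) both lie on 3L, at 16470386 to 16483650 and 3401153 to 3424935. The deposited counts appear to include introns and both strands: of 130 gene pairs in which a gene lies inside another on the opposite strand and has at least 500 counts, the outer gene held at least 0.9 times the inner gene's counts in all 130. For bnl, ths, spi, Egfr and sty this matters little, since the genes that overlap them held at most 6 counts over all libraries, and pyr, htl and vn overlap no gene. aos lies in an intron of CG33158, which had 8317 counts against 1225 for aos, so intronic reads of CG33158 may be counted in aos.

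Each of the 3 FGF ligands differed between genotypes, in a different way. bnl rose in brat-KD NB II and was higher again, by a further 15.9-fold, in the libraries labelled co-depleted. pyr rose 3.12-fold in brat-KD NB II, and ths fell to 0 counts in all 3 libraries labelled co-depleted. Of the EGF receptor genes, Egfr itself rose 2.21-fold in brat-KD NB II. In brat-KD against control NB II, 3 of the 10 genes rose (bnl, pyr, Egfr) and none fell, by the quasi-likelihood test of edgeR at a Benjamini-Hochberg adjusted p under 0.05, where 13.8% of all 8785 genes tested rose and 14.3% fell. The libraries of 4 of the 10 did not overlap (bnl, pyr, btl, Egfr), against 38.7% of all genes (20.3% higher and 18.4% lower in every library), and their median log2 fold change was 0.72, against -0.02 over all genes. In the libraries labelled co-depleted against brat-KD NB II, 1 of 9 genes tested rose (bnl) and 1 fell (ths), where 5.91% of 8750 genes rose and 5.71% fell. Here the libraries of 3 did not overlap (bnl, ths, spi), against 29.5% of all genes (12.9% higher, 16.6% lower), and the median was -0.22, against -0.05. Against the control, the same libraries gave the same calls, bnl higher and ths lower, among 8 genes tested, where 3.97% of 8506 genes rose and 3.32% fell. The libraries of 3 did not overlap (bnl, pyr, ths), against 34.1% of all genes (15.8% higher, 18.3% lower), and the median was 0.26, against -0.01 (the last 2 medians do not move if ths is set to its lower bound). With replicate 1 left out of both groups, an alternative chosen after seeing the data, spi (log2 fold change -1.29, adjusted p = 0.0050), vn (2.95, adjusted p = 0.018) and aos (-2.05, adjusted p = 0.029) were also called. This last comparison shares its libraries with the other 2 and is no separate evidence.

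**Figure D1:**
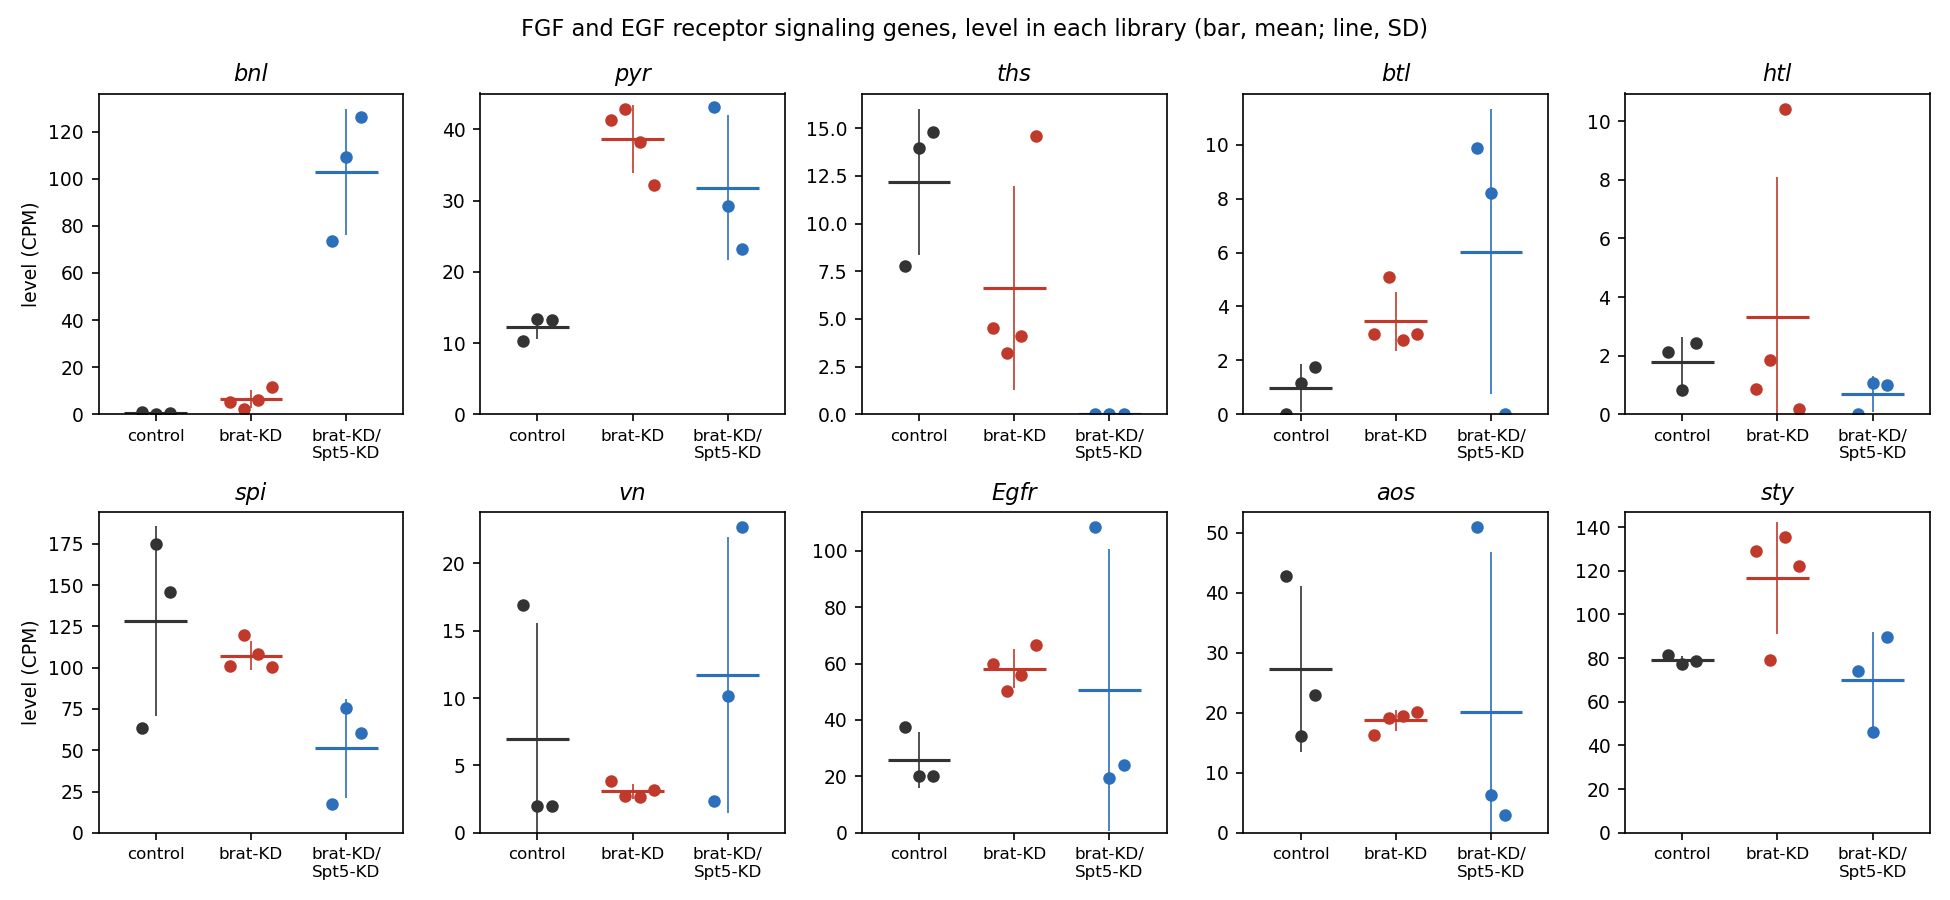
Level of each FGF and EGF receptor signaling gene (CPM, linear axis starting at 0, scaled per gene) in every library of control NB II (black), brat-KD NB II (red) and the libraries labelled co-depleted (blue), with the mean (bar) and SD (line). bnl runs from under 1 CPM in the control to between 73.5 and 126 CPM in the libraries labelled co-depleted, where ths is at 0, and the Egfr and aos panels each show a blue point (replicate 1) far above the other two.

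bnl was at 0.883, 0.208 and 0.663 CPM in the control libraries, from 5, 2 and 3 counts. It was at 5.24, 2.37, 6.07 and 11.6 CPM in brat-KD NB II and at 73.5, 109 and 126 CPM in the libraries labelled co-depleted. The 3 groups did not overlap, and the lowest library of each was above the highest of the group before it. brat-KD NB II exceeded the control by 3.42 on the log2 scale (SE 0.96, 10.7-fold, adjusted p = 0.022, edgeR quasi-likelihood test). Because only 10 counts stood behind the control, the ratio of summed counts, corrected for library size, was 12.55 with a 95% counting interval of 6.65 to 26.7. This call was lost without control replicate 2 (adjusted p = 0.082), control replicate 3 (0.067) or brat-KD replicate 4 (0.060), with a range of 0.0078 to 0.082 over the libraries left out, while the log2 fold change stayed between 2.96 and 3.96.

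The step from brat-KD NB II to the libraries labelled co-depleted rested on more reads, with 160 counts against 1066. bnl was higher there by 3.99 on the log2 scale (SE 0.50, 15.9-fold, adjusted p = 0.0035), and the call held with each library left out (adjusted p up to 0.022, log2 fold change 3.72 to 4.50). Against the control the difference was 7.50 on the log2 scale (SE 0.61, adjusted p = 0.0032), and the ratio of summed counts was 194.5 with a counting interval of 105 to 407. Replicate 3, whose Spt5 level was above the control range, had the highest bnl level of the 3, and without it bnl was called in both comparisons. Among markers of tracheal cells, where bnl and btl are best known, the summed level of 5 genes was 102 to 327 CPM in the control, 85.9 to 198 CPM in brat-KD NB II and 107 to 196 CPM in the libraries labelled co-depleted, and none of the 5 was called in any comparison. The summed level of 6 hemocyte markers was 37.8 to 108, 17.9 to 22.3 and 19.2 to 34.4 CPM in the 3 genotypes, and NimC1 and eater were at 0 in every library. Of the 6, Hml went with bnl in the libraries labelled co-depleted, at 16.0, 8.23 and 6.55 CPM. Hml was at 0 CPM in the control and at most 0.349 CPM in brat-KD NB II. Pxn fell from 32.3 to 88.9 CPM in the control to 0 to 1.57 CPM in brat-KD NB II. In the libraries labelled co-depleted Pxn was at 0 to 7.56 CPM, with replicates 2 and 3 above every library of brat-KD NB II. Of the 3 hemocyte markers tested there, 1 was called higher, against brat-KD NB II and against the control alike. Between brat-KD and control NB II, 1 of 2 tested was called lower. The part of hemocytes in the bnl result was not tested. For 5 muscle markers the summed level was 38.5 to 94.8, 96.7 to 135 and 133 to 322 CPM in the 3 genotypes. It followed sls (16.8 to 22.4, 66.0 to 109 and 127 to 302 CPM), while Mef2 did not (10.9 to 52.6, 17.3 to 30.5 and 1.18 to 12.8 CPM), nor bt (5.53 to 13.5, 0.132 to 1.75 and 0 to 2.38 CPM), Mhc and wupA were at most 6.53 CPM, and their part was not tested either.

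pyr, the first of the Heartless ligands, was at 10.2, 13.4 and 13.3 CPM in the control and at 41.4, 42.9, 38.3 and 32.2 CPM in brat-KD NB II. In the libraries labelled co-depleted it was at 43.1, 29.2 and 23.2 CPM. Every library with brat depletion was above every control library, and the 2 groups with brat depletion overlapped. The rise in brat-KD NB II was 1.64 on the log2 scale (SE 0.26, 3.12-fold, adjusted p = 0.0010), and it kept its call with each library left out (adjusted p up to 0.0067). Between the libraries labelled co-depleted and brat-KD NB II the difference was -0.30 (SE 0.32, adjusted p = 0.62). Against the control those libraries differed by 1.37 (SE 0.53), which did not pass in the pairwise fit (adjusted p = 0.18) but passed with DESeq2 (0.034) and in a fit of all 3 genotypes (0.028). In that comparison 15.8% of all genes tested were, like pyr, higher in every library.

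ths, the other Heartless ligand, had the opposite outcome in the libraries labelled co-depleted. It was at 7.77, 14.0 and 14.8 CPM in the control, from 44, 134 and 67 counts. In brat-KD NB II it was at 4.54, 3.22, 4.09 and 14.6 CPM, and the libraries labelled co-depleted held 0 counts each. Replicate 4 of brat-KD NB II was within the control range, and the other 3 were below every control library, and the difference between these groups did not pass (log2 fold change -0.89, SE 0.61, adjusted p = 0.32). With a limit of 3 counts in each library, ths was bounded from group means in the libraries labelled co-depleted. It was at least 6.91-fold lower there than in brat-KD NB II and at least 12.7-fold lower than in the control. The first bound uses a mean of 6.61 CPM, which replicate 4 raised above the median of 4.31 CPM. edgeR's quasi-likelihood test on the counts themselves gave adjusted p = 0.025 against brat-KD NB II and 0.035 against the control. Both calls rested on most of the libraries. Against brat-KD NB II the adjusted p ran from 0.0068 to 0.073 over the libraries left out. The call was lost on leaving out any of the 4 brat-KD libraries or co-depleted replicate 2. Against the control the adjusted p ran from 0.015 to 0.19, and the call held only without co-depleted replicate 1. The 0 counts cover counting error only, and they allow up to 0.707, 0.650 and 1.51 CPM in the 3 libraries.

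The FGF receptor genes had low levels, at most 10.4 CPM in any library. btl was at 0, 1.15 and 1.77 CPM in the control, at 2.97, 5.08, 2.77 and 2.99 CPM in brat-KD NB II and at 9.89, 8.23 and 0 CPM in the libraries labelled co-depleted. All 4 libraries of brat-KD NB II were above the control, as 20.3% of all genes tested were, but the difference did not pass the test (log2 fold change 1.82, SE 1.09, adjusted p = 0.25). The libraries labelled co-depleted were spread on both sides of brat-KD NB II (0.81, SE 1.10, adjusted p = 0.70). htl was at 2.12, 0.833 and 2.43 CPM in the control and at 0.873, 1.86, 10.4 and 0.166 CPM in brat-KD NB II. It was at 0, 1.08 and 1.01 CPM in the libraries labelled co-depleted, and all 3 groups overlapped. htl differed by 0.90 on the log2 scale between brat-KD and control NB II (SE 1.20, adjusted p = 0.63), and in the comparisons with that group htl had too few counts to be tested, as had btl against the control. stumps, which encodes the adaptor that both FGF receptors need, was at 4.77, 1.56 and 0.885 CPM in the control, 0 to 2.24 CPM in brat-KD NB II and 0 to 0.650 CPM in the libraries labelled co-depleted, and was not tested in any comparison. The summed level of 7 glial markers was 370 to 487, 274 to 369 and 399 to 455 CPM in the 3 genotypes, most of it from Eaat1 and nrv2, while repo was at 0 to 9.51, 0.498 to 7.79 and 0 to 3.03 CPM, and of the 7, of which 3 or 4 had enough counts to be tested, none was called in any comparison.

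Of the EGF receptor ligands, spi was the abundant one. It was at 63.7, 175 and 146 CPM in the control, at 101, 120, 108 and 101 CPM in brat-KD NB II and at 17.4, 75.4 and 60.5 CPM in the libraries labelled co-depleted. The control and brat-KD NB II overlapped, with control replicate 1 below and the other control libraries above all 4 of brat-KD NB II. The log2 fold change was -0.26 (SE 0.27, adjusted p = 0.52), and it became -0.57 without control replicate 1 (adjusted p = 0.010) and 0.06 without control replicate 2 (0.90). All 3 libraries labelled co-depleted were below all 4 of brat-KD NB II, as was the case for 16.6% of all genes tested. The difference of -1.09 on the log2 scale (SE 0.42) did not pass (adjusted p = 0.14). Without co-depleted replicate 1, the library with the lowest level, it was smaller at -0.66 and passed (adjusted p = 0.028, range 0.028 to 0.26 over the libraries left out). Against the control it was -1.31 (SE 0.57, adjusted p = 0.23).

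vn was low and uneven. It was at 16.9, 1.98 and 1.99 CPM in the control, at 3.84, 2.71, 2.64 and 3.15 CPM in brat-KD NB II and at 2.36, 10.2 and 22.7 CPM in the libraries labelled co-depleted. Replicate 1 was the highest control library and the lowest of those labelled brat-KD/Spt5-KD, and every pair of groups overlapped. Between brat-KD and control NB II, vn differed by -1.21 on the log2 scale (SE 0.86, adjusted p = 0.34), and it turned to 0.64 without control replicate 1. Between the libraries labelled co-depleted and brat-KD NB II, vn differed by 1.89 (SE 0.82, adjusted p = 0.18). Without replicate 1 this was 2.39 and passed (adjusted p = 0.011, range 0.011 to 0.53). With all libraries kept, vn was also called when only genes with at least 10 counts in every library were tested. Against the control the difference of 0.70 (SE 1.25, adjusted p = 0.83) ran from -0.22 without co-depleted replicate 3 to 2.48 without control replicate 1.

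Egfr was at 37.4, 20.2 and 20.1 CPM in the control and at 59.9, 50.1, 55.8 and 66.6 CPM in brat-KD NB II. All 4 libraries of the latter were above all 3 of the control, and the rise was 1.14 on the log2 scale (SE 0.27, 2.21-fold, adjusted p = 0.010). It kept its call with each library left out (adjusted p 0.00012 to 0.040) but not in the fit of all 3 genotypes (0.19), which includes the spread of the libraries labelled co-depleted. Egfr was at 108, 19.3 and 24.2 CPM in the libraries labelled co-depleted. Replicate 1 was above every library of brat-KD NB II and the other 2 were below every one of them, replicate 2 below the control libraries and replicate 3 within their range. Against brat-KD NB II the log2 fold change was -0.22 (SE 0.54, adjusted p = 0.85). Without replicate 1 it was -1.44 (adjusted p = 0.0015), and without replicate 2 or 3 it turned to 0.16 or 0.10 (adjusted p up to 0.95 over the libraries left out). Against the control it was 0.95 (SE 0.71, adjusted p = 0.53), and -0.26 without replicate 1.

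Of the inhibitors, aos was at 42.7, 16.0 and 23.0 CPM in the control, at 16.2, 19.1, 19.4 and 20.1 CPM in brat-KD NB II and at 50.9, 6.28 and 3.03 CPM in the libraries labelled co-depleted. As with Egfr, replicate 1 of the last group was above and the other 2 were below every library of brat-KD NB II. aos differed by -0.56 (SE 0.36, adjusted p = 0.28) between brat-KD and control NB II and by 0.08 (SE 0.82, adjusted p = 0.97) between the libraries labelled co-depleted and brat-KD NB II. The latter value was -1.94 without replicate 1 (adjusted p = 0.0086, range 0.0086 to 0.99). Against the control it was -0.46 (SE 1.02, adjusted p = 0.88) with replicate 1 and -2.49 (adjusted p = 0.046) without it. In that replicate the intermediate progenitor markers summed to 473 CPM, against 53.7 and 302 CPM in the other 2 libraries and 65.7 to 127 CPM in brat-KD NB II. The sum in that replicate came from ham (297 CPM), D (87.6 CPM) and erm (71.6 CPM), while opa was at 16.0 CPM and ey at 0, against 77.0 to 138 and 53.5 to 66.0 CPM in the control, and the part of these cells in the levels of Egfr and aos was not tested.

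sty was at 81.2, 77.4 and 78.7 CPM in the control, at 129, 78.9, 136 and 122 CPM in brat-KD NB II and at 74.2, 46.1 and 89.7 CPM in the libraries labelled co-depleted. In brat-KD NB II 3 libraries were above every library of the other 2 groups and replicate 2 was within the control range. The difference of 0.55 on the log2 scale (SE 0.20) missed the threshold in edgeR's quasi-likelihood test (adjusted p = 0.062). It passed with DESeq2 (0.049), without control replicate 1 (0.044) and without brat-KD replicate 2 (0.70 on the log2 scale, adjusted p = 0.011). Between the libraries labelled co-depleted and brat-KD NB II sty differed by -0.77 (SE 0.28, adjusted p = 0.12), and between them and the control by -0.19 (SE 0.29, adjusted p = 0.80).

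**Figure D2:**
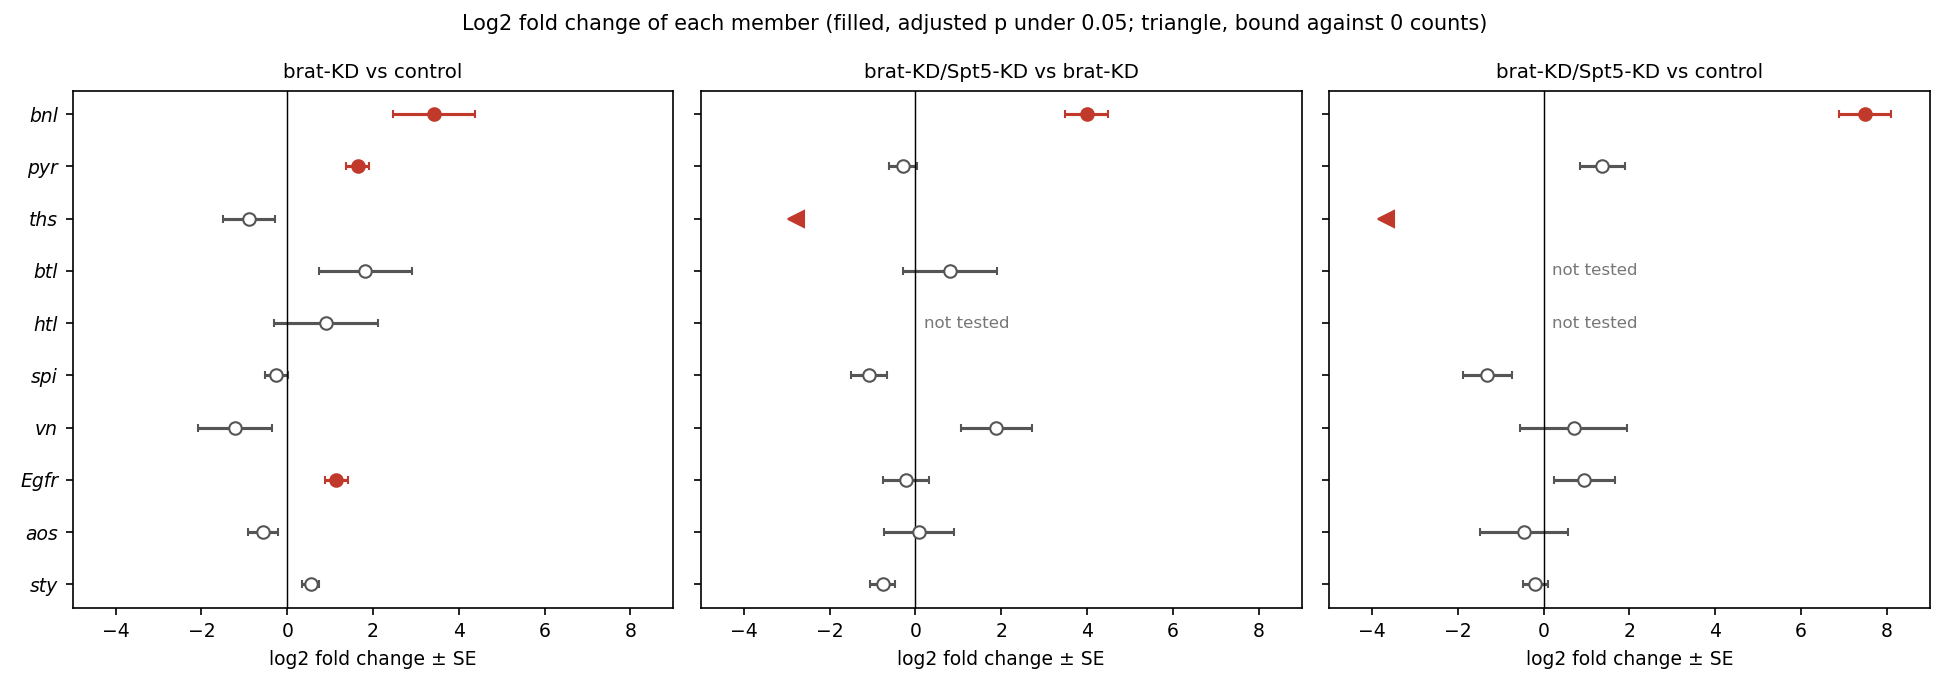
Log2 fold change ± SE of each gene (x axis) in the 3 comparisons, from edgeR's quasi-likelihood fits of each pair of genotypes. Filled red points passed an adjusted p of 0.05 (bnl in all 3, pyr and Egfr in brat-KD against control NB II), triangles mark the bound for ths against 0 counts (-2.79 and -3.67 on the log2 scale), and genes with too few counts are marked as not tested.

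Compared per length, in CPM per kb of annotated exons, the order of the 10 genes changed mainly through bnl. In the control spi had the highest level at 70.6 ± 31.8 (SD, n = 3), followed by sty at 14.5 ± 0.36 and aos at 9.66 ± 4.91, and bnl had the lowest at 0.128 ± 0.075. pyr at 3.83 ± 0.56 and Egfr at 3.73 ± 1.43 were within their spread of each other, as were ths at 1.51 ± 0.48 and vn at 1.33 ± 1.65. In brat-KD NB II (n = 4) spi and sty stayed first and second at 59.1 ± 4.88 and 21.4 ± 4.71, pyr came next at 12.0 ± 1.47, above Egfr at 8.36 ± 0.99 and aos at 6.63 ± 0.60, and bnl came sixth at 1.39 ± 0.85. The levels of bnl, btl, ths, htl and vn lay between 0.589 and 1.39 there and were mostly within their spread of each other. In the libraries labelled co-depleted (n = 3) bnl came second at 22.6 ± 5.89, within its spread of spi at 28.1 ± 16.6, and above sty at 12.9 ± 4.07 and pyr at 9.91 ± 3.18. This place depends on the length used. Per kb of the whole gene span, introns included, which was tried after seeing the data, bnl at 2.41 ± 0.63 came below sty at 2.94 ± 0.93 in those libraries and close to pyr at 2.26 ± 0.72, and it came eighth in brat-KD NB II and last in the control. Per kb of exons, the receptor gene btl was at 1.52 ± 1.33 and htl at 0.170 ± 0.148 in the same libraries.

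**Figure D3:**
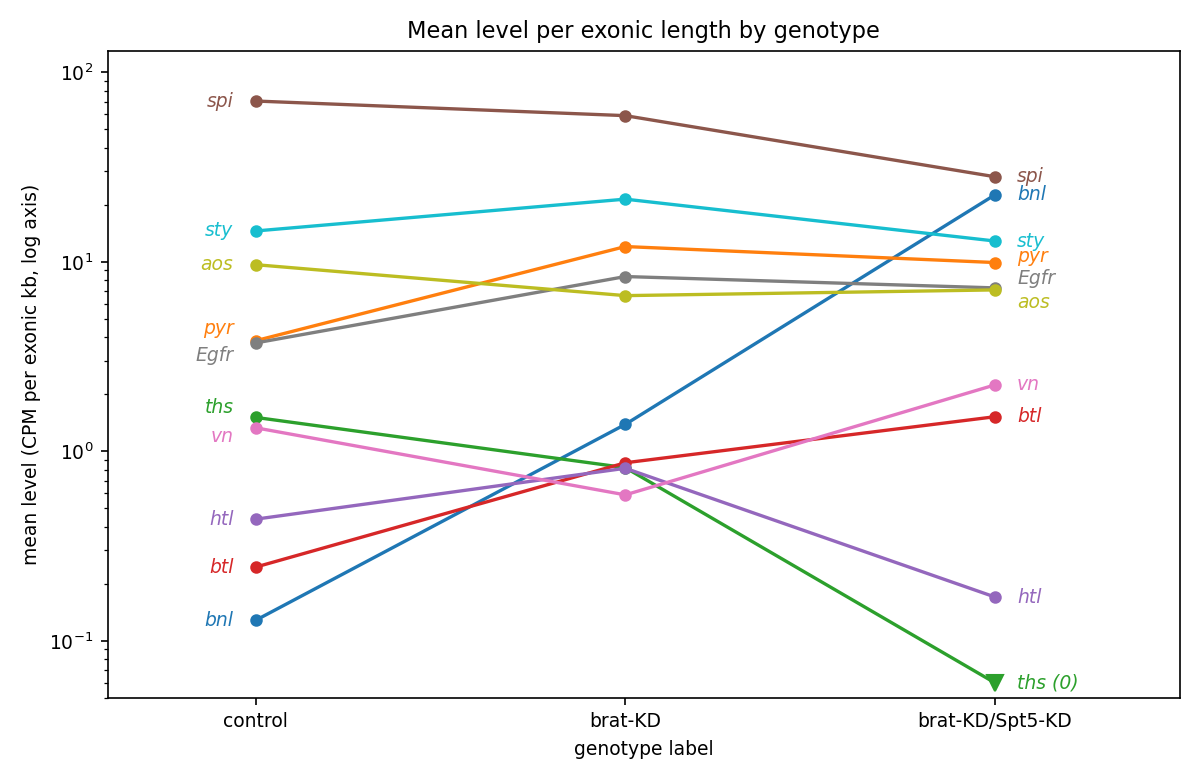
Mean level of each gene per exonic length (CPM per kb of exon, log axis) in the 3 genotypes, with lines joining the means of a gene. bnl moves from the lowest of the 10 levels in the control (0.128) to the second highest in the libraries labelled co-depleted (22.6), where it comes below sty per kb of gene span, and the triangle marks ths at 0, which a log axis cannot show.

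Around the 10 genes, 40 others of the same pathways were examined, of which 39 had enough counts to be tested in each comparison. In brat-KD against control NB II, 5 of the 39 rose and 7 fell, a share of genes changed close to the 28.1% over all genes tested. Their median log2 fold change was -0.13, against -0.02 over all genes. pnt, the ETS activator at its end, was at 83.3, 53.4 and 61.3 CPM in the control and at 447, 313, 319 and 371 CPM in brat-KD NB II. It rose 5.44-fold (2.44 on the log2 scale, SE 0.21, adjusted p = 3.4e-05), with no overlap between the groups, and kept its call with each library left out. Of 3 type II neuroblast markers, 2 were also called higher. tll was at 26.3 to 39.4 CPM in the control and at 104 to 116 CPM in brat-KD NB II. btd was at 3.00 to 31.1 and 68.3 to 111 CPM, while Sp1 overlapped at 132 to 235 and 223 to 301 CPM. The part of NB II abundance in the pnt level was not tested. edl, whose product binds and restrains Pointed, rose by 1.20 on the log2 scale (SE 0.24, adjusted p = 0.0040). RasGAP1 and Nf1, whose products switch off Ras, rose by 1.14 (SE 0.21, adjusted p = 0.0028) and 0.76 (SE 0.20, adjusted p = 0.016). Counts of Hs6st, a heparan sulfate sulfotransferase gene, also rose (0.76, SE 0.16, adjusted p = 0.0045), but mira, a neuroblast marker inside it, held 97.4% as many counts, and reads of the pair cannot be told apart.

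Of the 12 genes of the Ras and MAP kinase core, 2 fell and none rose in brat-KD NB II, where 14.3% of all genes tested fell and 13.8% rose. rl, the gene of the MAP kinase itself, was at 137, 98.6 and 97.1 CPM in the control and at 54.1, 56.6, 42.6 and 53.6 CPM in brat-KD NB II, which did not overlap (-1.12 on the log2 scale, SE 0.19, adjusted p = 0.0016). Shc, a receptor adaptor, fell by 0.74 (SE 0.23, adjusted p = 0.033). Among the other inhibitors, vap, a further Ras GTPase-activating protein gene, fell by 0.91 (SE 0.15, adjusted p = 0.0012) and Spred by 0.57 (SE 0.18, adjusted p = 0.039). Spred lies outside the rule for naming genes and was added after its value was seen, to complete the 7. Of the genes upstream of the EGF receptor, stet, a rhomboid protease gene of ligand processing, fell by 2.32 (SE 0.66, adjusted p = 0.022) and the ligand gene grk by 1.51 (SE 0.39, adjusted p = 0.015). grk shares 212 exonic bp with Akap200, which had 44989 counts against 627, so its value is uncertain. dlp, which encodes a glypican of the cell surface, fell by 0.88 (SE 0.24, adjusted p = 0.020). The calls of Nf1, Spred, Shc, stet, grk and dlp were each lost on leaving out at least 1 library (highest adjusted p 0.058 to 0.098), and those of pnt, edl, RasGAP1, rl and vap were not. rho, the rhomboid protease that releases Spitz in most tissues, was at 8.65, 5.62 and 7.30 CPM in the control and 4.54, 2.71, 4.62 and 6.97 CPM in brat-KD NB II (log2 fold change -0.62, SE 0.60, adjusted p = 0.49), and it lies inside Ptp61F.

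In the libraries labelled co-depleted against brat-KD NB II, none of the 39 rose and 5 fell. Over all genes tested 5.91% rose and 5.71% fell, and 11.6% changed in either direction. The median log2 fold change of the 39 was -0.34, against -0.05 over all genes. At an adjusted p under 0.05 the 5 were RasGAP1, edl, Sur-8, pnt and Hs6st, the last again inseparable from mira. pnt was at 147, 234 and 174 CPM in these libraries, below all 4 of brat-KD NB II and above all 3 of the control. The difference from brat-KD NB II was -0.99 on the log2 scale (SE 0.22, adjusted p = 0.024) and that from the control 1.49 (SE 0.30, adjusted p = 0.028). Of 3 type II neuroblast markers, Sp1 (40.5, 129 and 74.6 CPM) and btd (16.5, 61.9 and 54.0 CPM) were also below every library of brat-KD NB II. tll, at 106, 157 and 85.7 CPM, overlapped brat-KD NB II and was above every control library. The part of NB II abundance in the levels of pnt and edl was not tested here either. RasGAP1 was at 37.7, 39.8 and 33.8 CPM, lower than in brat-KD NB II by 1.58 on the log2 scale (SE 0.22, adjusted p = 0.0049) in libraries that did not overlap. edl fell by 1.29 (SE 0.32, adjusted p = 0.033), and Sur-8, a scaffold gene of Ras and Raf, by 1.06 (SE 0.28, adjusted p = 0.042). Of these calls, RasGAP1 held with each library left out, and those of pnt (adjusted p 0.0096 to 0.077), edl (0.011 to 0.11), Sur-8 (0.019 to 0.17) and Hs6st (0.0069 to 0.059) did not. Against the control, 3 of the 39 changed, where 7.29% of all genes did. pnt was higher, and rl (-1.62, SE 0.35, adjusted p = 0.034) and vap (-1.44, SE 0.25, adjusted p = 0.020) were lower, and each of the 3 calls was lost on leaving out any control library (adjusted p 0.0097 to 0.15 for pnt, 0.024 to 0.13 for rl and 0.0057 to 0.12 for vap over the libraries left out). rho differed by 1.52 (SE 0.84, adjusted p = 0.29) from brat-KD NB II and by 0.93 (SE 1.00, adjusted p = 0.69) from the control, with 31.6 CPM in replicate 1 and 3.46 and 6.55 CPM in the other libraries.

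**Figure D4:**
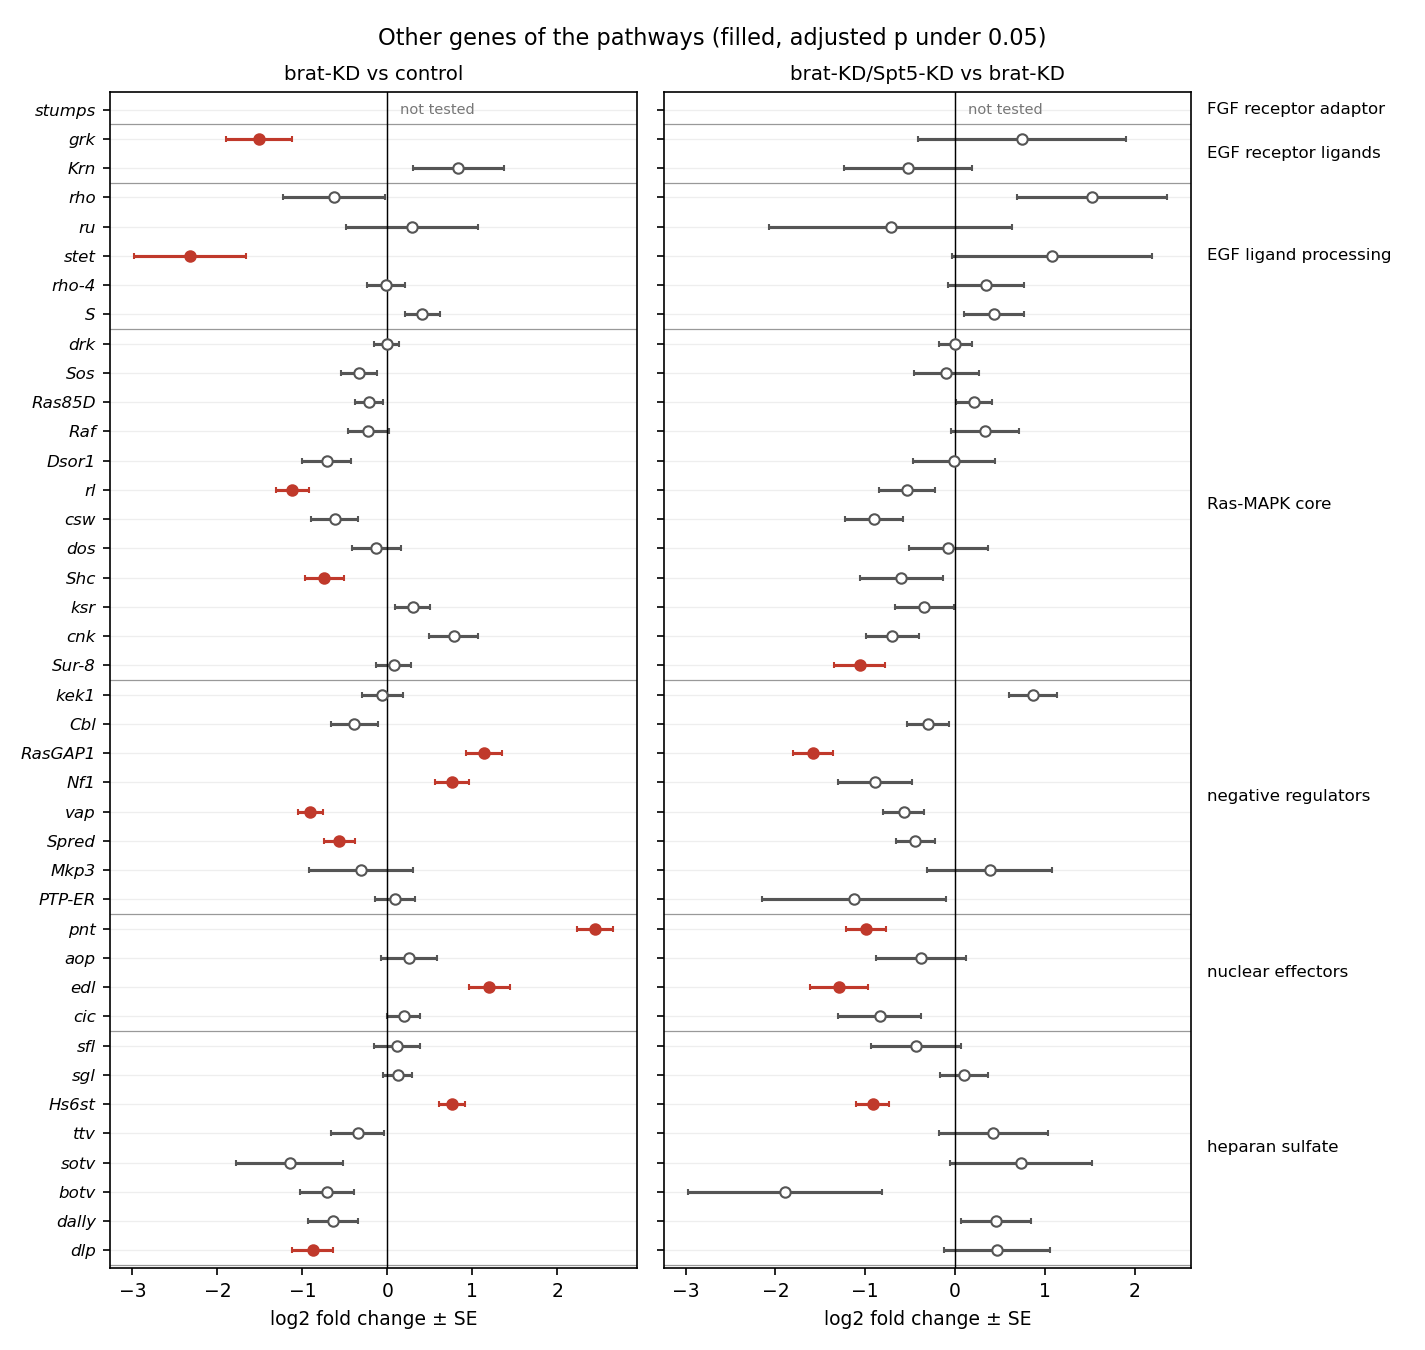
Log2 fold change ± SE (x axis) of 40 other genes of the FGF and EGF receptor pathways, grouped by role, in brat-KD against control NB II (left) and in the libraries labelled co-depleted against brat-KD NB II (right), with genes past an adjusted p of 0.05 filled in red. On the left 5 genes rose, led by pnt at 2.44, and 7 fell, and on the right 5 fell, led by RasGAP1 at -1.58, and none rose.

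For each of the 9 genes with enough counts, the gene whose log2 CPM correlated best with it (Pearson) was sought among 7497 to 7499 others. This compares the pattern over the 10 libraries and not the level itself. These correlations describe libraries that share genotype and depth and carry no p. bnl was most like Gapdh2, a glycolytic enzyme gene (r = 0.98), with mean levels of 204, 498 and 1124 CPM in the control, brat-KD NB II and the libraries labelled co-depleted. ths was most like ewg, a transcription factor gene (r = 0.98), whose means in the same order were 165, 107 and 28.3 CPM. pyr was most like thr (r = 0.97) at 42.6, 114 and 110 CPM, spi like EndoB (r = 0.98), Egfr like lncRNA:CR44779 (r = 0.97), aos like dnr1 (r = 0.97) and sty like Pdp1 (r = 0.97). The closest genes to btl (CG8237, r = 0.93) and vn (Rrp46, r = 0.88) were less like them.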

How the data were processed

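Polyadenylated RNA of sorted GFP-positive cells was sequenced for 75 cycles from directional libraries amplified with 17 or 24 PCR cycles, and which library had which number is not given in the sources used here. The authors mapped reads to BDGP6 (dm6) with bowtie2, set to very sensitive local alignment, and deposited raw counts of reads per gene, without normalization. The counting program and annotation are not given in the sources used here, and the submitters' processing notes name FastQC and edgeR 3.26.8. Every column of the table belongs to one of the 10 libraries, whose groups were taken from their labels.

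The 10 genes, the lists of other pathway genes and of cell type markers, and the rule for naming genes were chosen with earlier results of these data known. All 10 genes are described in each comparison. Of the 40 other pathway genes, those named are, in each comparison, the up to 6 most changed in each direction that were called, had a mean log2 CPM of 2 or more and did not overlap between groups, and also pnt, stumps and rho in any case. The most similar gene was sought for genes with at least 10 counts in at least 5 libraries. Genes were matched by symbol, all 93 of the listed symbols were found, and coordinates and exon lengths came from Ensembl release 115 for the same assembly. Not every overlap between genes is reported here.

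Each pair of genotypes was fitted by itself in edgeR 4.0.16 (R 4.3.3, limma 3.58.1) with TMM normalization, filterByExpr at a minimum count of 10 and the quasi-likelihood test, and p-values were adjusted over all genes tested by Benjamini-Hochberg with a threshold of 0.05. Standard errors came from the same fits. CPM were computed with TMM over all 10 libraries. A fold against 0 counts was bounded at 3 counts per library. Counting intervals at 95% cover counting error only. The procedure was run on counts simulated with dispersions from these data. The simulation held no outlying replicate, so it cannot speak to the effect of replicate 1. Alternatives were DESeq2 1.42.0, its size factors, library totals, no filter, a minimum of 10 counts in each library, 1 fit of all 3 genotypes, the replicate number as a block, each library left out in turn, and, chosen after seeing the data, both first replicates left out and gene span in place of exonic length for the order of levels. Python 3.11.15 and pandas 2.3.3 handled the tables.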

Additional observations from a re-analysis of the deposited data

Results flagged for a closer look

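Within the 4 libraries of brat-KD NB II, 4 of 26 genes checked had a library far from the other 3 by Dixon's criterion. Chance sets apart about 1 in 20 such groups. The ths level of 14.6 CPM in replicate 4 stood above the other libraries (3.22 to 4.54 CPM), with a gap of 0.884 of the range. For btl it was replicate 2, at 5.08 CPM against 2.77 to 2.99 CPM (0.906 of the range). For htl it was replicate 3, at 10.4 CPM against 0.166 to 1.86 CPM (0.835 of the range), from 79 counts against 1 to 11. For Nf1 it was replicate 1, at 66.1 CPM against 56.1 to 57.3 CPM (0.882 of the range). The 4 values came from 4 different libraries.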

How the results depend on the processing

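Leaving out 1 library at a time gave 1691 to 3229 changed genes for brat-KD against control NB II (2467 with all libraries), 334 to 2408 for the libraries labelled co-depleted against brat-KD NB II (1017) and 64 to 1504 against the control (620). Of the 10 genes, 2 to 5, 1 to 6 and 1 to 3 were then called (3, 2 and 2 with all libraries), and of the other pathway genes 7 to 14, 1 to 14 and 0 to 9 (12, 5 and 3). Over the same fits the log2 fold change changed sign for spi (-0.57 to 0.06) and vn (-1.62 to 0.64) in brat-KD against control NB II, for Egfr (-1.44 to 0.16) and aos (-1.94 to 0.57) in the libraries labelled co-depleted against brat-KD NB II, and for vn (-0.22 to 2.48), Egfr (-0.26 to 1.32), sty (-0.46 to 0.02) and rho (-0.54 to 1.38) against the control. With DESeq2, 1742 and 1495 genes changed in the last 2 comparisons, and 7 pathway genes against the control. All 3 genotypes in 1 fit gave 1250 changed genes and 6 pathway genes for brat-KD against control NB II, and 1450 and 6 for the libraries labelled co-depleted against the control. At least 10 counts in every library left 0 of the 10 genes and 5 pathway genes called against the control, since bnl and ths then had too few counts to be tested. With both first replicates left out, 2513 genes, 5 of the 10 and 13 pathway genes changed against the control, and rho was at -0.46.

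Nothing in the labels ties libraries of the same replicate number. Same-numbered libraries deviated from their group means with correlations of -0.021 to 0.10, -0.015 to 0.093 and 0.047 to 0.15 in the 3 comparisons. Libraries of different numbers gave -0.11 to 0.10, -0.082 to 0.038 and -0.16 to 0.14. In the last comparison the first replicates of both groups gave 0.13, and a first replicate with any other number gave -0.16 to -0.046. Whether the first replicates share a batch was not tested. With the replicate number as a block, 7 pathway genes were called in brat-KD against control NB II and bnl missed the threshold (adjusted p = 0.090). In the libraries labelled co-depleted against brat-KD NB II the block left 1 gene, 0 of the 10 and 0 pathway genes, with btl at -0.02 and aos at -0.94, and against the control 232 genes, 1 of the 10 and 1 pathway gene. The cause of these differences was not tested. Of the single-gene fold changes under settings other than leaving out 1 library, 310 kept direction and call, 23 lost the call, 7 gained it and 3 changed sign. No change of normalization moved the median over all genes by over 0.1. Depth limits btl, htl, stumps and, in the control, bnl, which had 10 counts over 3 libraries.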
